A study of Mus musculus with 13 samples.

Results

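Laminin chains, nidogens and collagen IV chains, the proteins from which basement membranes are built, were examined as a set of 10 genes in cells sorted from around mouse tibial implants and labelled LEPR+. The genes were chosen by name: Lama2, Lama4, Lama5, Lamb1, Lamb2, Lamc1, Nid1, Nid2, Col4a1 and Col4a2. Of these 10 genes, 9 were rows of the count matrix used here, out of 23211 genes in all, and Lama5 was not analysed here. The list was drawn up knowing that Lamb1 had been higher in fibrous than in bone libraries of these samples, so every fibrous and bone value of the 9 genes below is a description, with no test behind the choice.

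The cells were sorted by flow cytometry from tissue beside tibial implants, as lineage-negative (Lin negative) LEPR-positive cells per the series title, and their polyA RNA was sequenced in bulk. LEPR, the leptin receptor, marks stromal cells of bone marrow. Bone libraries (n = 6) came from tissue labelled Pressfit, and fibrous libraries (n = 7) from tissue labelled PMMA. No strain, age, genotype, time after surgery or agent other than the implant was given for either group. Nothing said whether libraries came from separate mice, so the p-values speak of library-to-library spread, part of which may be technical. The library names fall into an L002 series (bone 1 to 4, fibrous 1 to 5) and an XY9274 series (bone 5 and 6, fibrous 6 and 7). Within L002, bone 1, bone 2 and fibrous 2, 3 and 4 carry the word plus, bone 3, bone 4 and fibrous 5 carry the word Lin, and fibrous 1 carries neither. In bone 2 and fibrous 2, 3 and 4 the word plus follows LepR, as LepR.plus, and the XY9274 names hold Lepr.Pos. The names with Lin hold no LepR. The labels do not otherwise explain these words.

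A basement membrane is a thin sheet of matrix that underlies epithelium and endothelium and wraps muscle, fat and Schwann cells. Each laminin is a trimer of 1 alpha, 1 beta and 1 gamma chain that polymerises on the cell surface through integrins and dystroglycan, nidogens bridge laminin to collagen IV, and the collagen IV network is built of trimers that in most tissues hold alpha1 and alpha2 chains. Stromal cells of the marrow that lie along blood vessels are one known source of such chains.

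The sorted libraries differed in more than their group. Total counts ran from 16162321 to 43217004 in bone and from 18056208 to 44302166 in fibrous libraries. Lepr itself was under 5 CPM (counts relative to the library's total, scaled by edgeR's TMM factors) in 5 of 13 libraries, namely bone 3, 4 and 5 and fibrous 1 and 5, and reached 804 CPM in fibrous 2. The titles of all 13 libraries begin with LepR+, so for those 5 libraries the low Lepr level goes against the label. They include the 3 whose names carry Lin, and also bone 5, whose name holds Lepr.Pos. Erythroid markers, mainly globins, summed to between 1819 and 593546 CPM, with the 3 Lin-named libraries highest at 392674, 593546 and 235544 CPM. In a bulk library, fewer cells of a type and less RNA per cell cannot be told apart.

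Sequence at the gene starts is shown for 2 pairs of related chains that came apart in some libraries, the beta chains and the collagen IV chains. The RefSeq promoter table (GRCm38.p6) held 6 of the 9 measured genes and Lama5. Col4a1 and Col4a2 lie head to head on chromosome 8, and in the GENCODE M21 annotation their first exons overlap by 22 bases, at chr8:11312805-11312826. That overlap is printed on both strands, and the stretches upstream of the annotated starts of Lamb1, at chr12:31265043-31265233 on the plus strand, and Lamb2, at chr9:108479612-108479735 on the plus strand, follow. Capitals mark matches to GGGCGG (the GC box), CCAAT (the CCAAT box) or TATAAA (the TATA box) on either strand.
Col4a2 strand: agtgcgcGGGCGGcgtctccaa
Col4a1 strand: ttggagacgCCGCCCgcgcact
Lamb1 upstream: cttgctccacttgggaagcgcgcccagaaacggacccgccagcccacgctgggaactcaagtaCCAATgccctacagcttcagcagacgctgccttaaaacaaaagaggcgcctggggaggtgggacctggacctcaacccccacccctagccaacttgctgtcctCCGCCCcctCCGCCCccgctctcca
Lamb2 upstream: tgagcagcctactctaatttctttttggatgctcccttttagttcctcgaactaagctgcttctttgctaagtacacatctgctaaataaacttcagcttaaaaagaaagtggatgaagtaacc
The collagen IV overlap holds 1 GC box, shared by both genes because it is one site read on 2 strands. The Lamb1 stretch holds 2 GC boxes and 1 CCAAT box, and none of the 3 motifs is written in the Lamb2 stretch. Among all 32851 promoters of 300 bases in the table, 35.7% held a GC box, 37.4% a CCAAT box and 13.6% a TATA box on either strand. The printed stretches, of 22, 191 and 124 bases, are shorter, so these shares do not apply to them. In its 300-base promoter, Col4a1 held 1 GC box and 1 CCAAT box, and Col4a2 held 3 and 1. The Lamb1 promoter held 2 and 1, and the Lamb2 promoter held none of the 3 motifs. These matches are letters only and were not tied to any measured level.

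Laminin alpha chains, which carry the receptor-binding end of the trimer, had the lowest medians per length of the measured genes (0.461 CPM per kilobase of exon for Lama4 and 0 for Lama2). Lama2, the alpha chain of muscle and peripheral nerve laminin (ENSMUSG00000019899, chr10:26980036-27619758, minus strand, mm10), was at 1 count in each of bone 1 and bone 2 and at 0 in the other 4 bone libraries. In fibrous libraries it was at 27 counts in fibrous 3, 25 in fibrous 4, 109 in fibrous 6 and 221 in fibrous 7, and at 0 in fibrous 1, 2 and 5. The highest of these, 4.15 CPM in fibrous 7, is low against the other chains, and Lama2 did not pass the low-count filter for the test across all libraries.

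Lama4, the alpha chain typical of vessels and fat (ENSMUSG00000019846, chr10:38965515-39110188, plus strand), had a lowest, median and highest level of 0, 3.19 and 18.9 CPM in bone and 0, 8.48 and 21.3 CPM in fibrous libraries. It was high in bone 1 and in fibrous 2 and 3, at 0 counts in bone 3, bone 4 and fibrous 5, and the groups overlapped over nearly their whole range. The means were 5.46 ± 7.17 CPM (SD, n = 6) in bone and 9.61 ± 8.88 CPM (SD, n = 7) in fibrous libraries. The log2 fold change fitted by edgeR, with a term for the name series, was 0.82 (SE 1.53). Here and for the genes below, this fitted value is not the log2 of the ratio of the means.

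The beta chain Lamb1 (ENSMUSG00000002900, chr12:31265234-31329644, plus strand), found in most embryonic and many adult laminins, was at 0, 0.373, 0.387, 0.502, 3.13 and 6.73 CPM in bone libraries 1 to 6. Its levels in fibrous libraries 1 to 7 were 7.38, 71.2, 51.0, 27.3, 4.74, 22.4 and 19.6 CPM. The only fibrous library below a bone library was the Lin-named fibrous 5, which lay under bone 6, so the groups overlapped by that 1 library. The means were 1.85 ± 2.65 CPM (SD, n = 6) and 29.1 ± 24.0 CPM (SD, n = 7), a ratio of 15.7. The fitted log2 fold change was 5.38 (SE 1.29), the largest of the 8 genes fitted. This is the difference known when the list was drawn up.

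Lamb2, the beta chain of muscle synapse and kidney filter laminins (ENSMUSG00000052911, chr9:108479736-108490530, plus strand), ran from 0 through a median of 8.63 to 34.4 CPM in bone and from 1.54 through 30.3 to 70.8 CPM in fibrous libraries. Bone 1 was above 5 of the 7 fibrous libraries, and the groups overlapped widely. The means were 10.9 ± 12.7 CPM (SD, n = 6) and 34.4 ± 25.8 CPM (SD, n = 7), with a fitted log2 fold change of 1.61 (SE 1.10).

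Lamc1 (ENSMUSG00000026478, chr1:153218922-153332786, minus strand), the gamma chain of nearly all laminins, ran from 0.0829 through a median of 2.00 to 14.1 CPM in bone and from 0 through 15.5 to 45.1 CPM in fibrous libraries. Fibrous 2 stood alone at the top, and the Lin-named fibrous 5 had no count at all. The means were 4.60 ± 5.78 CPM (SD, n = 6) and 15.2 ± 14.7 CPM (SD, n = 7), with wide overlap. The fitted log2 fold change was 1.77 (SE 1.29).

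The nidogens, which link the laminin and collagen IV networks, included the most abundant member. Nid1 (ENSMUSG00000005397, chr13:13437551-13512269, plus strand) ran from 0.100 through a median of 5.16 to 28.6 CPM in bone and from 1.91 through 25.3 to 90.2 CPM in fibrous libraries. The means were 8.57 ± 11.2 CPM (SD, n = 6) and 30.9 ± 30.0 CPM (SD, n = 7), with a fitted log2 fold change of 1.83 (SE 1.18). Bone 1 exceeded 5 of the 7 fibrous libraries for this gene.

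Nid2 (ENSMUSG00000021806, chr14:19751265-19811787, plus strand) ran from 1.35 through a median of 25.4 to 152 CPM in bone and from 2.52 through 107 to 283 CPM in fibrous libraries. Bone 1, at 152 CPM, was second only to fibrous 7 among the 13 libraries. The means were 45.0 ± 57.7 CPM (SD, n = 6) and 108 ± 93.9 CPM (SD, n = 7), with a fitted log2 fold change of 1.06 (SE 1.10).

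Col4a1 (ENSMUSG00000031502, chr8:11198423-11312826, minus strand) ran from 0.129 through a median of 8.58 to 23.5 CPM in bone and from 0.273 through 43.7 to 75.8 CPM in fibrous libraries. Fibrous 1 and fibrous 5 lay inside the bone range and the other 5 fibrous libraries above it. The means were 9.76 ± 9.84 CPM (SD, n = 6) and 38.4 ± 26.6 CPM (SD, n = 7), with a fitted log2 fold change of 1.95 (SE 1.11).

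Its partner Col4a2 (ENSMUSG00000031503, chr8:11312805-11449287, plus strand) was at 0, 9.03, 0, 0.502, 1.93 and 4.13 CPM in bone libraries 1 to 6. Its levels in fibrous libraries 1 to 7 were 0.0781, 85.6, 31.9, 26.0, 0.123, 23.4 and 29.3 CPM. The other 5 fibrous libraries were each above every bone library, while fibrous 1 and fibrous 5 held 2 counts each. The means were 2.60 ± 3.52 CPM (SD, n = 6) and 28.1 ± 28.6 CPM (SD, n = 7), with a fitted log2 fold change of 3.43 (SE 1.61).

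**Figure D1:**
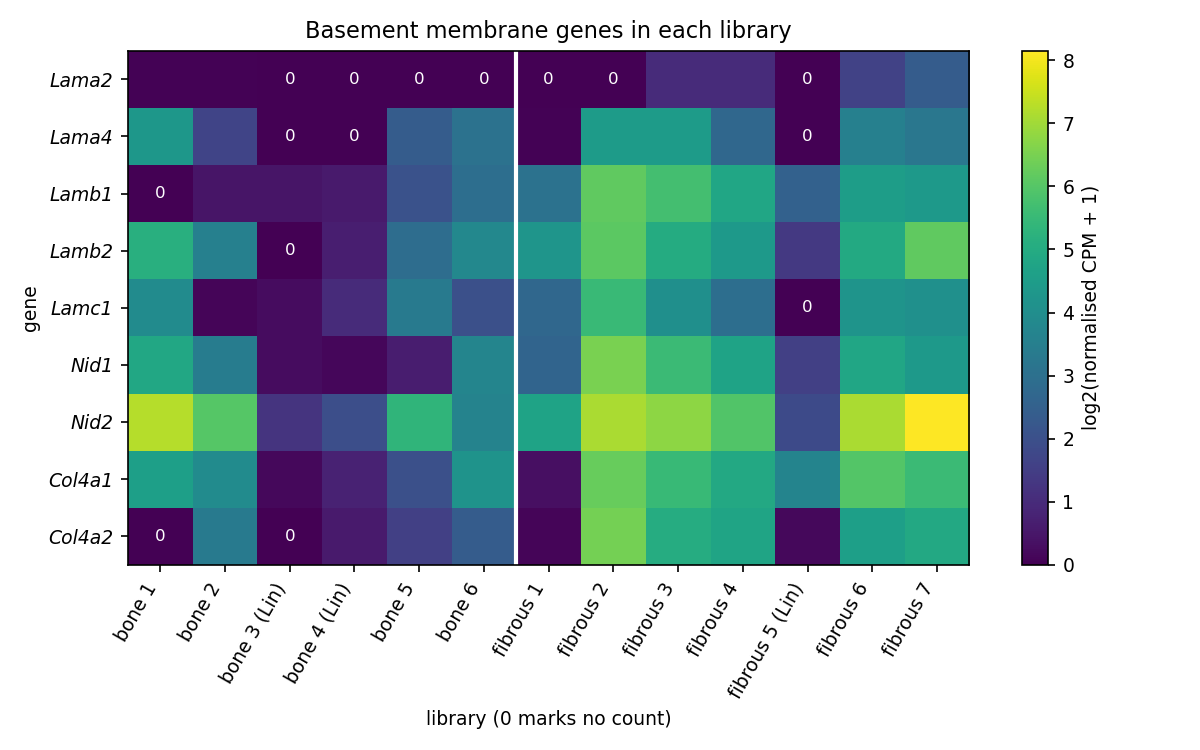
Level of the 9 measured genes (rows) in each of the 13 libraries (columns), as log2 of normalised CPM plus 1, with a white line between the 6 bone and 7 fibrous libraries and a printed 0 where no read was counted. Fibrous 2, 3, 4, 6 and 7 are bright in most rows, while bone 3, bone 4 and fibrous 5, whose names carry Lin, are dark, and bone 1 is bright for Nid2 (152 CPM) but empty for Lamb1 and Col4a2.

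Summed over the 9 genes, bone 1 to 6 held 272, 109, 2.26, 6.32, 67.9 and 75.1 CPM, and fibrous 1 to 7 held 62.0, 596, 350, 202, 22.6, 333 and 498 CPM. Of the 8 genes that passed the low-count filter, 8 had a log2 fold change above 0 in fibrous against bone, where 51.9% of the 13294 genes tested did, and their median was 1.80 beside 0.03 over the tested genes. With edgeR's quasi-likelihood test and a term for the name series, 0 of the 8 genes passed an adjusted p of 0.05, as did 0 of 13294 genes (0% called). At an unadjusted p under 0.05 there were 636 genes (4.78%), of which 1 was on the list (Lamb1). DESeq2 called 169 genes (1.3% of 12993), among them Lamb1. None of the 8 genes had every fibrous library above every bone library, a pattern held by 7 of 13294 genes (0.0527%). The median over the 8 genes became 1.45 without the 3 Lin-named libraries, 1.51 without the 5 libraries low in Lepr and 2.75 without bone 1. The list took its direction from values already known, so nothing is read from these counts.

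**Figure D2:**
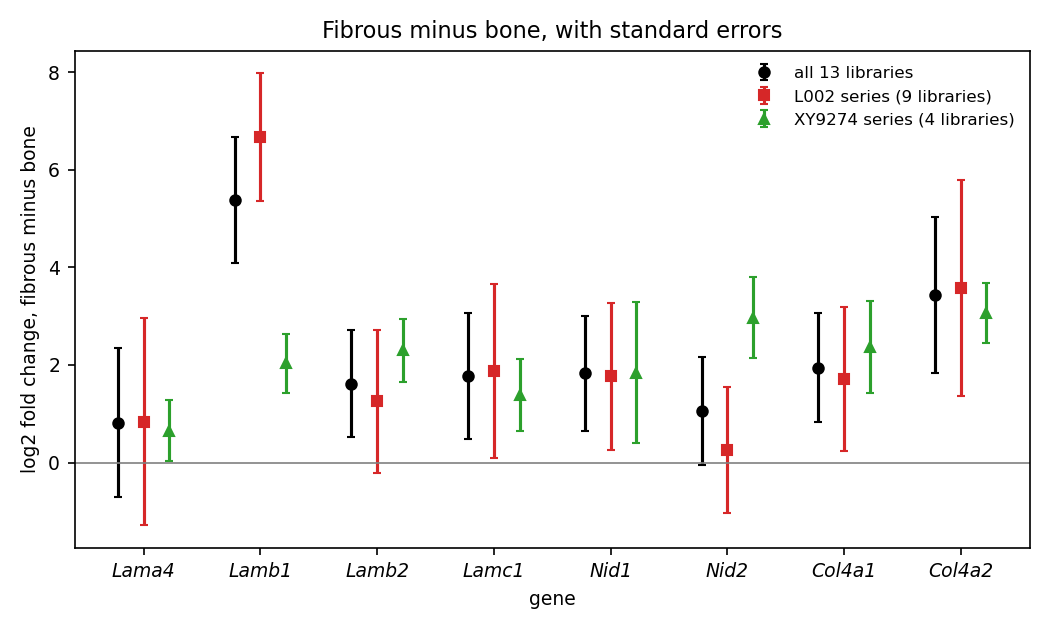
Log2 fold change of fibrous against bone, on the vertical axis, for the 8 genes fitted, with bars of 1 standard error, in all 13 libraries (black circles), the 9 L002 libraries (red squares) and the 4 XY9274 libraries (green triangles). Lamb1 is at 6.66 in L002 and 2.03 in XY9274, while Nid2 is at 0.25 and 2.97. No adjusted p was under 0.05 for these genes in any of the 3 fits.

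The 2 name series gave different sizes for some genes. Lamb1 differed between fibrous and bone by 6.66 on the log2 scale in L002 and by 2.03 in XY9274, and Nid2 by 0.25 and 2.97. Col4a2 differed by 3.57 and 3.06, Nid1 by 1.77 and 1.84, and Lama4 by 0.83 and 0.66. The interaction of series and group, which tests those differences themselves, was -4.62 (SE 1.76) for Lamb1 and 2.77 (SE 2.23) for Nid2, each with an edgeR adjusted p of 1.00. It was called for 0 of 13294 genes by edgeR (0% called, with 292 at an unadjusted p under 0.05), and DESeq2 called 25 genes, none of them on the list. Between the series themselves, with group in the fit, edgeR called 287 genes (2.16%) and 0 of the 8 genes. The largest of the 8 was Lamb1, at 2.21 (SE 1.24, edgeR adjusted p = 0.305), and the median of the 8 was 0.40.

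The genes also separated along the words in the library names. The list was drawn up with fibrous and bone results of these libraries known, and the bearing of that choice on this split was not tested. Compared with the 5 plus-named libraries of L002, the 3 Lin-named libraries were lower for both nidogens, Lama4 and Lamb2. edgeR's quasi-likelihood test across the 9 L002 libraries, with a term for group, called 4 of the 9 genes, and all 4 were lower in the Lin-named libraries. Over all 16803 genes tested it called 981 (5.84%), of which 552 (3.29%) were lower.

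Nid2 was at 1.35, 2.91 and 2.52 CPM in the Lin-named bone 3, bone 4 and fibrous 5. In the plus-named bone 1, bone 2, fibrous 2, fibrous 3 and fibrous 4 it was at 152, 62.9, 139, 107 and 59.7 CPM. Every Lin-named library lay below every plus-named one, and within bone alone bone 3 and 4 were below bone 1 and 2. The log2 fold change was -5.52 (SE 0.56, edgeR adjusted p = 0.0121), and the mean was 46.1-fold higher in the plus-named libraries.

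Nid1 was at 0.193, 0.100 and 1.91 CPM in the Lin-named libraries and at 28.6, 9.74, 90.2, 46.2 and 25.3 CPM in the plus-named ones, in the library order just given. The log2 fold change was -5.75 (SE 0.86, edgeR adjusted p = 0.0209). Both nidogens thus passed the test in one direction, with no overlap between the sets of libraries.

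Lama4 was at 0 counts in the 3 Lin-named libraries and at 18.9, 2.15, 21.2, 21.3 and 5.56 CPM in the plus-named ones. Against a floor of 3 counts in the shallowest Lin-named library, 0.301 CPM, the mean was at least 45.9-fold lower in the Lin-named libraries, and the edgeR adjusted p was 0.0364. For this gene a count of 0 allows up to 3 counts per library, counting error only.

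Lamb2 was at 0, 0.602 and 1.54 CPM in the Lin-named libraries and at 34.4, 10.7, 67.9, 31.6 and 20.5 CPM in the plus-named ones. Its log2 fold change was -5.49 (SE 1.16, edgeR adjusted p = 0.0386). The other beta chain did not follow it: Lamb1 was at 0.387, 0.502 and 4.74 CPM in the Lin-named libraries, and at 0 and 0.373 CPM in the plus-named bone 1 and bone 2 against 71.2, 51.0 and 27.3 CPM in the plus-named fibrous libraries. Its log2 fold change, with group in the fit, was -0.47 (SE 1.61, edgeR adjusted p = 0.885), and without fibrous 5 it was 1.27. The difference in response between Lamb1 and Lamb2 was not tested.

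The remaining chains were also lower in the fit without passing. Col4a1 had every Lin-named library (0.129, 0.702 and 11.8 CPM) below every plus-named library (lowest 14.2 CPM), with a log2 fold change of -3.65 (SE 0.96, edgeR adjusted p = 0.0694). Col4a2 was at -5.74 (SE 2.30, edgeR adjusted p = 0.190) and Lamc1 at -5.06 (SE 2.27, edgeR adjusted p = 0.234), each with a plus-named bone library at or near 0. Lama2, at 0 counts in the 3 Lin-named libraries and at most 1.01 CPM in the plus-named ones, had an edgeR adjusted p of 0.349.

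Over the 9 genes the fitted change was below 0 in 9, beside 56.3% of all genes tested, and the median was -5.49 beside -0.23. Lama2 entered this fit on its plus-named counts alone, so its sign was fixed in advance. The low-count filter here let a gene pass on 1 library, because fibrous 1 was a name-word set of its own. Shares of all genes tested are over this wider set (16803 genes, against 13450 without fibrous 1). Among the 9, the 5 genes Lama4, Lamb2, Nid1, Nid2 and Col4a1 had no overlap between the sets, with the Lin-named libraries lower, a pattern held by 10.8% of all genes tested (1811 of 16803). The call rested on few libraries: with each of the 9 L002 libraries left out in turn, between 1 and 4 of the genes were called, and Nid2 was called in each of these 9 fits. Lama4 did not pass when any plus-named or Lin-named library was left out (edgeR adjusted p between 0.0503 and 0.0924). It passed without fibrous 1, which had a term of its own and so held no information on this split. Lamb2 did not pass without bone 1, 2, 3 or 4 or fibrous 2, 3 or 5 (edgeR adjusted p between 0.0621 and 0.102), and Nid1 did not without bone 3, bone 4, fibrous 2 or fibrous 3 (edgeR adjusted p between 0.0527 and 0.0679). Some of these libraries share an identifier in their names, 4 for bone 2 and bone 4 and A for fibrous 2 and fibrous 5, and the labels do not say whether it marks a shared animal. With those 4 libraries alone and the identifier as a replicate block, edgeR called 15 genes (2218 at an unadjusted p under 0.05) and 0 of the 8 listed genes that passed the filter, with Nid2 at -5.13 (SE 0.60, edgeR adjusted p = 0.0827) and Nid1 at -5.88 (SE 0.74, edgeR adjusted p = 0.0845). The fit over 9 libraries treats them as independent. DESeq2 called 7 of the 9 genes, the exceptions being Lamb1 and Lama2, and 25.7% of all genes.

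**Figure D3:**
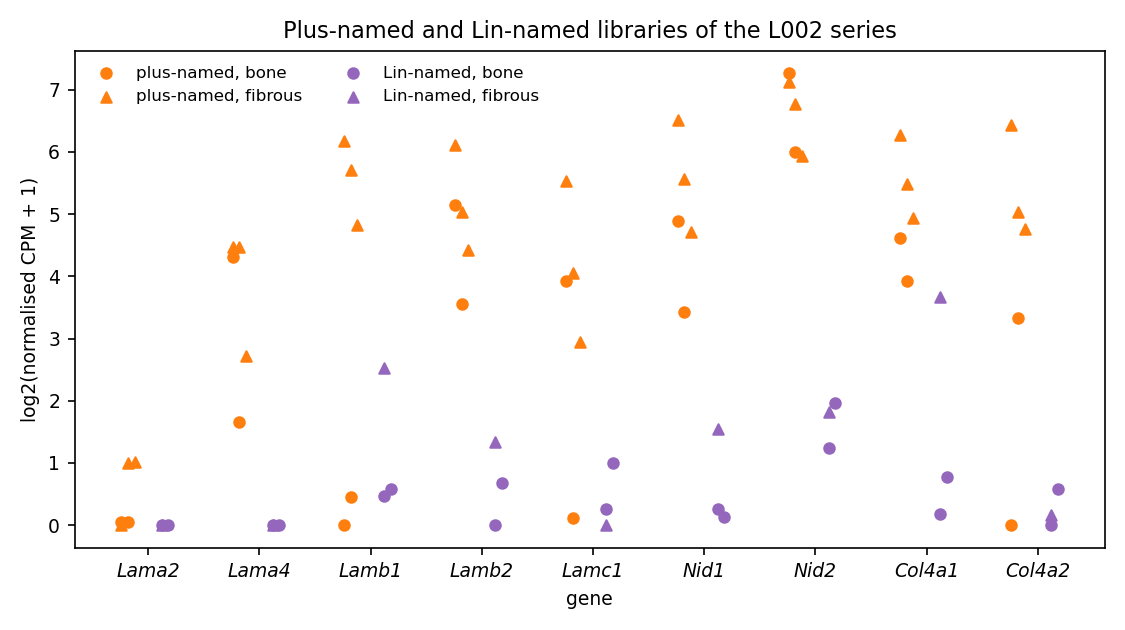
Level of the 9 genes, as log2 of normalised CPM plus 1, in the 5 plus-named (orange) and 3 Lin-named (purple) libraries of the L002 series, with circles for bone and triangles for fibrous libraries. The sets do not overlap for Lama4, Lamb2, Nid1, Nid2 and Col4a1, and for Lamb1 the 2 plus-named bone libraries lie at or under the Lin-named ones.

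Other genes moved along this split too, where edgeR called 552 (3.29%) of 16803 genes lower and 429 higher. Lepr was at 0.644, 0.602 and 0.739 CPM in the Lin-named libraries and between 46.7 and 804 CPM in the plus-named ones (log2 fold change -8.09, SE 0.90, edgeR adjusted p = 0.0127). Marrow stromal markers (4 of 8 tested called lower, 0 higher) summed to at most 26.0 CPM in the Lin-named and at least 859 CPM in the plus-named libraries. Chondrocyte markers (6 of 7 called lower) summed to at most 1901 and at least 8454 CPM, and osteoblast markers (5 of 7 called lower) to at most 5207 and at least 15462 CPM. Erythroid markers (6 of 7 called higher) summed to at least 235544 and at most 76113 CPM. Their part in the result for the nidogens, Lama4 and Lamb2 was not tested.

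Partner genes whose products assemble together were compared within libraries, where depth is shared. Shares are of raw counts and are not divided by exonic length unless stated. In 8 libraries with more than 200 collagen IV counts besides bone 1, the share of Col4a2 in the Col4a1 and Col4a2 counts ran from 19.5% in bone 6 to 53.0% in fibrous 2. Bone 1 held 597 counts of Col4a1 and 0 of Col4a2, a share of 0% with a 95% Wilson interval up to 0.639%. Fibrous 5 held 191 counts of Col4a1 and 2 of Col4a2, a share of 1.04% (95% Wilson interval 0.285% to 3.70%). These intervals cover counting error only. Without stranded counting, which is not given in the sources used here, reads in the 22-base overlap of these genes cannot be split between them.

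The beta chains separated in more libraries. Lamb1 made up 0% of 873 beta chain counts in bone 1 (95% Wilson interval up to 0.438%) and 3.37% of 267 in bone 2 (1.78% to 6.28%), the 2 plus-named bone libraries. It made up 32.3% in bone 5 and 34.0% in bone 6, and 51.2%, 61.8% and 57.1% in the plus-named fibrous 2, 3 and 4. Bone 3 (6 Lamb1 and 0 Lamb2 counts) and bone 4 (5 and 6 counts) were at 100% and 45.5%, on few counts. Exonic length is 9917 bases for Lamb1 and 6082 for Lamb2. Divided by length, the Lamb1 shares in fibrous 2, 3 and 4 were 39.1%, 49.8% and 45.0%. Lamb2 was thus the larger in fibrous 2 and 4, and the chains were near equal in fibrous 3. Of the raw counts, Lamb1 made up 42.6% and 21.7% in fibrous 6 and 7, 28.9% in fibrous 1, and 75.5% of 102 in fibrous 5 (66.3% to 82.8%). The XY9274 shares of 32.3% and 34.0% in bone lie between the 21.7% and 42.6% of fibrous libraries of that series, so the shares of the groups overlapped there.

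For the nidogens, Nid1 made up 1.45% of 1863 counts in bone 5 (1.00% to 2.10%) and 51.7% of 772 in bone 6 (48.2% to 55.2%), the widest gap between libraries of one group and series. Divided by exonic length, the share of Nid1 in bone 6 was 44.4%. In fibrous libraries its share ran from 6.61% in fibrous 7 to 43.1% in fibrous 5. Nearly all nidogen counts of bone 5 were thus Nid2, at 39.4 CPM, with Nid1 at 0.579 CPM. That Nid2 level was below those of bone 1 (152 CPM) and bone 2 (62.9 CPM).

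**Figure D4:**
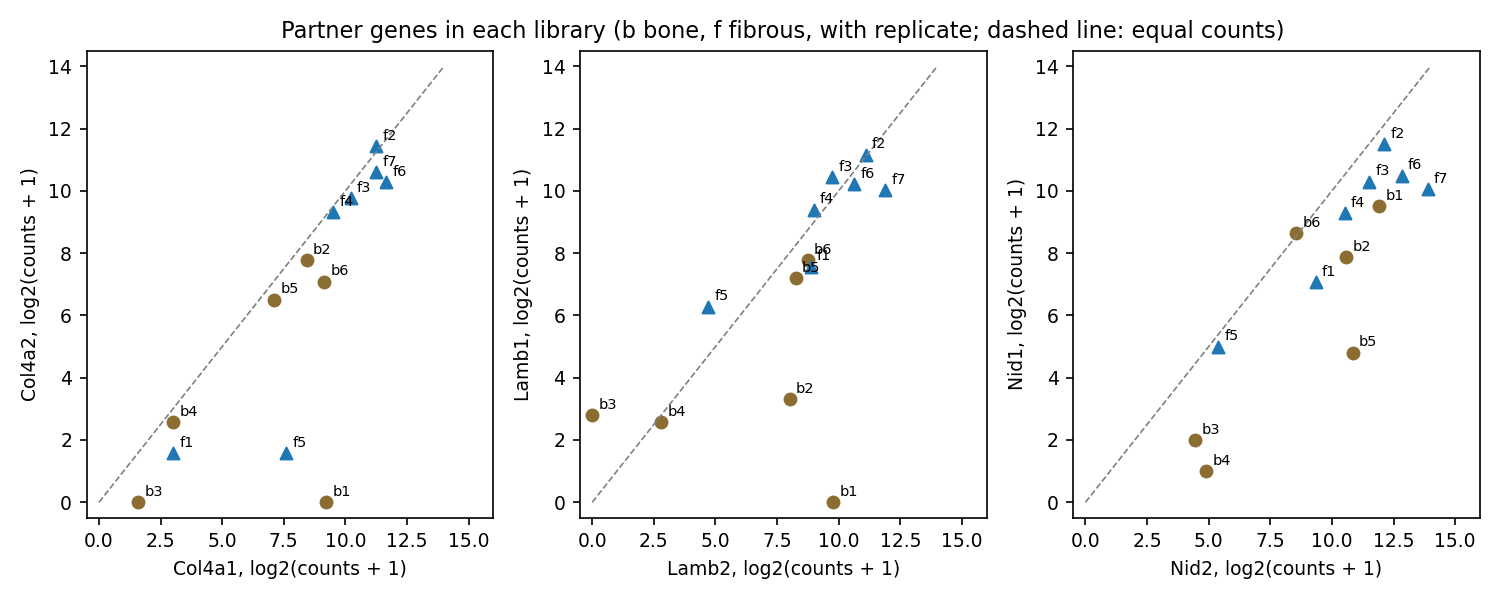
Counts of partner genes against each other in each library, as log2 of counts plus 1: Col4a2 against Col4a1, Lamb1 against Lamb2 and Nid1 against Nid2, with brown circles for bone, blue triangles for fibrous libraries and a dashed line at equal counts. Bone 1 (597 Col4a1 and 0 Col4a2 counts, 873 Lamb2 and 0 Lamb1 counts) and fibrous 5 (191 Col4a1 and 2 Col4a2 counts) lie far from the line.

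Genes with no count were not limited to these chains. They were counted among 8310 genes with a mean of at least 10 CPM over the 13 libraries. Bone 1 to 6 had no count for 157 (1.89%), 34, 112, 120, 9 and 42 of these. Fibrous 1 to 7 had none for 83, 16, 55, 23, 71, 6 and 4. Bone 5, fibrous 6 and fibrous 7, with the fewest, also had the most total counts (43217004, 43637758 and 44302166). Of the 9 genes, 4 were at 0 in bone 3, 3 in fibrous 5, and 2 in each of bone 1 and bone 4. The part of these empty genes in the partner shares was not tested.

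Levels of different genes were compared as CPM per kilobase of exon. The order of the median over the 13 libraries was Nid2 (11.5), Lamb2 (2.98), Col4a1 (2.29), Nid1 (1.76), Lamc1 (0.810), Lamb1 (0.679), Col4a2 (0.624), Lama4 (0.461) and Lama2 (0). Nid2 was above Lamb2 in 13 of 13 libraries, Nid1 above Lamc1 in 11 and Col4a2 above Lama4 in 10. Lamb2 exceeded Col4a1 in 6 and was below it in 7, Col4a1 exceeded Nid1 in 8 and was below it in 5, and Lamb1 and Col4a2 were split 6 to 6, so the order of these neighbours did not hold beyond the spread of libraries. Lamb1 was above Lamc1 in 10 of 13 libraries although its median was lower.

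By chain class, the summed beta chains (Lamb1 and Lamb2) exceeded the gamma chain (Lamc1) in all 13 libraries on this per-length scale. The ratio lay between 1.23 and 7.81 in 11 libraries and was 179 in bone 2, where Lamc1 held 2 counts. In fibrous 5 Lamc1 was at 0 and no ratio was taken. The measured alpha chains (Lama2 and Lama4) summed to 1.76 CPM per kilobase in fibrous 2 beside 18.3 for beta and 5.45 for gamma, and to 0.957 in fibrous 7 beside 13.6 and 1.95. Lama5, another widespread alpha chain, is not in these sums.

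**Figure D5:**
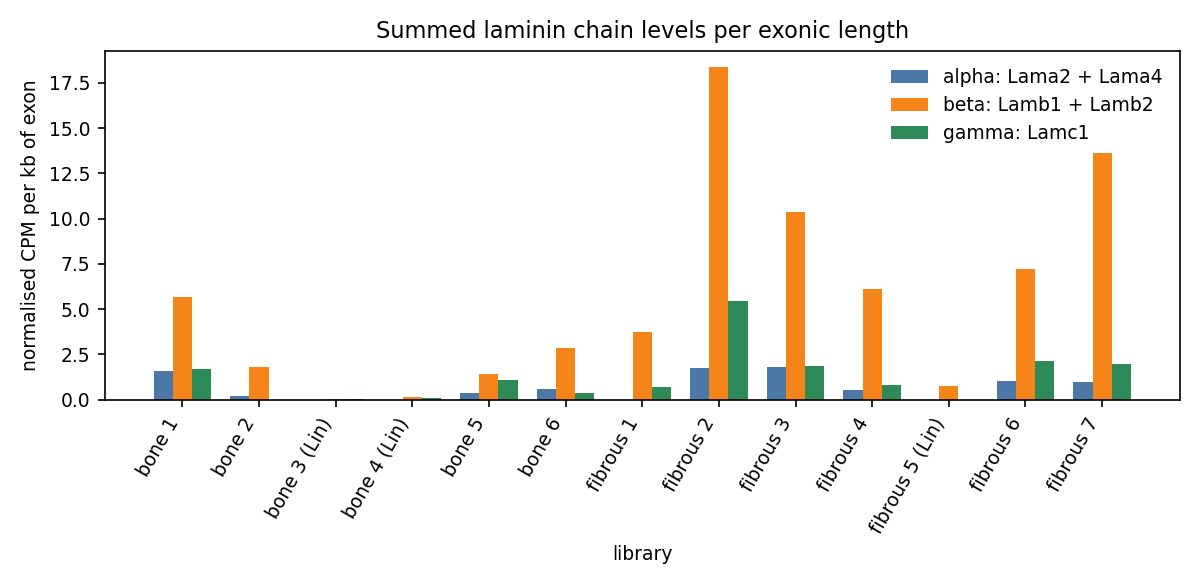
Summed level of the measured laminin alpha, beta and gamma chains in each library, as normalised CPM per kilobase of exon, as bars from 0. Beta chains are the tallest bar in every library, at 18.3 in fibrous 2 and 13.6 in fibrous 7, and the bars of bone 3 are too low to see.

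Other basement membrane genes were described from 6 lists. In fibrous against bone, edgeR called none of their genes, as it called 0 of all genes tested. Over all genes tested in that comparison, 51.9% had a fold change above 0. Of the 5 other laminin chains, the highest mean level was 1.75 CPM for Lamb3, an epithelial beta chain, and Lama1 was at 0.449 CPM. The other 4 collagen IV chains were scarcer still, with Col4a5 at 0.528, Col4a6 at 0.331 and Col4a3 at 0.110 CPM. Only Lamb3 of these 9 genes passed the filter in the fit of fibrous and bone libraries, at -1.76 (SE 1.54).

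Of the 4 proteoglycans and multiplexins, Hspg2 (perlecan) was the most abundant with a mean of 21.1 CPM, led by 73.4 and 123 CPM in fibrous 6 and 7. Col18a1 had a mean of 6.43 and Col15a1 of 5.63 CPM. In fibrous against bone, 3 of the 4 were above 0 with a median of 1.35. Hspg2 was at 1.75 (SE 1.07) and Col18a1 at -0.32 (SE 1.29). In the Lin-named against the plus-named libraries 4 of 4 were below 0 (56.3% of all genes tested) and 0 were called (5.84% of all genes tested).

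Of the 12 other glycoproteins in the matrix, Sparc, a collagen-binding protein abundant in bone, had a mean of 8007 CPM, followed by Tinagl1 at 59.5 and Smoc2 at 51.6 CPM. Of 7 tested in fibrous against bone, 6 were above 0 (median 0.97). In the Lin-named libraries 3 of 9 tested were called lower, beside 3.29% of all genes tested, and 0 higher. The 3 were Smoc2 (-2.49, SE 0.28, edgeR adjusted p = 0.0128), Sparc (-3.61, SE 0.55, edgeR adjusted p = 0.0209) and Fbln2 (-8.12, SE 1.27, edgeR adjusted p = 0.0209). Fbln2, a fibulin that binds laminin and nidogen, is named because it is 1 of the 3 called, chosen after its values were seen. Tinagl1 was at 1.16 (SE 0.30, edgeR adjusted p = 0.0665), the opposite sign.

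Of the 4 assembly enzymes and chaperones, Serpinh1, the collagen chaperone of the endoplasmic reticulum, had a mean of 1101 CPM, Colgalt1 of 104 CPM and Loxl2 of 12.0 CPM. In fibrous against bone 4 of 4 were above 0 with a median of 0.33. Serpinh1 was called lower in the Lin-named libraries (-2.35, SE 0.40, edgeR adjusted p = 0.0244), 1 of the 4, beside 3.29% of all genes tested.

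Of the 12 receptors for laminin and collagen IV, Itgb1, the shared integrin beta chain, had a mean of 249 CPM, Sdc2 of 79.4 and Dag1, which encodes dystroglycan, of 46.8 CPM. In fibrous against bone, 9 of 10 tested were above 0 (median 1.33), the exception being Itga6 at -2.09 (SE 1.05), named after its value was seen. In the Lin-named libraries 12 of 12 were below 0, beside 56.3% of all genes tested. Itga2 and Itga7, at 0 counts in every Lin-named library, could only fall below 0. Of the 12, 2 were called lower (3.29% of all genes tested), Sdc2 (-3.01, SE 0.42, edgeR adjusted p = 0.0171) and Dag1 (-3.60, SE 0.66, edgeR adjusted p = 0.0278). Itgb1, at -1.31 (SE 0.31), had an edgeR adjusted p of 0.0528.

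Genes with a pattern most like the mean of the 8 filtered genes were ranked by the mean absolute difference of centred log2 CPM over the 13 libraries, among 9543 genes. The closest were Ptk7 (0.63), a Wnt co-receptor, Lrp1 (0.78), an endocytic receptor, S1pr3 (0.79), a sphingosine-1-phosphate receptor, and Adam12 (0.79), a metalloprotease. Tnfrsf19 (0.81), Tnc (0.81), which encodes tenascin C, Fat1 (0.82) and Dag1 (0.82) followed. The median over all genes compared was 2.10 and the 5th percentile 1.47. These libraries share depth, sort and RNA source, so the measure is a description.

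Between pairs of the 8 genes, by the same measure, the smallest difference was between Lamb2 and Nid2 (0.84), and the largest between Lamc1 and Col4a2 (2.49). Measured instead against the mean profile of the other 7 genes, Lamb2 was the closest (0.95), and Lamb1 (1.67) and Col4a2 (1.70) were the farthest. As pairs, Col4a1 and Col4a2 differed by 1.70 and Lamb1 and Lamb2 by 1.92, more than either gene of the pair differed from some gene outside it.

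Markers of other cells that make basement membrane were set beside these levels. Endothelial markers (9 of 10 in the matrix) summed to between 19.8 and 80.9 CPM in bone and between 16.5 and 63.7 CPM in fibrous libraries. Of these, Cdh5, the endothelial cadherin, was at 0 in 10 of 13 libraries and at most 0.602 CPM, while Pecam1 reached 43.1 CPM in bone 5 and 34.1 CPM in fibrous 6. Vwf ran from 0.249 to 58.9 CPM and Egfl7 from 5.51 to 26.0 CPM over the 13 libraries. In bone 6, with the highest sum, Vwf was at 58.9, Egfl7 at 15.2 and Pecam1 at 0.0918 CPM. Mural cell markers (8 of 9 in the matrix) summed to between 0.193 and 53.7 CPM in bone and between 4.31 and 215 CPM in fibrous libraries. The highest sum, in fibrous 7, was mainly Cspg4, at 178 CPM. In bone 6 Cspg4 was at 4.80 CPM and Notch3 at 11.3 CPM, of a sum of 20.3 CPM. In fibrous 2 Cspg4 was at 23.1 CPM and Notch3 at 11.6 CPM, of 48.2 CPM. Rgs5, a pericyte marker, was above 1 CPM in fibrous 2, 6 and 7 alone (3.38, 8.64 and 17.7 CPM), and Myh11, a smooth muscle myosin, was at most 1.94 CPM.

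Schwann cell markers (6 of 7 in the matrix) summed to between 4.72 and 109 CPM in bone and between 25.3 and 81.0 CPM in fibrous libraries. Most of that was Mbp, a myelin protein gene, at 4.61 to 109 CPM over the 13 libraries, while Sox10, the Schwann cell transcription factor, was at most 0.545 CPM. Muscle markers (3 of 7 in the matrix) summed to between 11.7 and 105 CPM, and epithelial markers (3 of 5) to between 0 and 24.6 CPM. Neutrophil markers summed to between 1473 and 89185 CPM in bone and between 623 and 22205 CPM in fibrous libraries, pan-leukocyte markers to between 114 and 4618 and between 88.6 and 1395 CPM, and macrophage markers to between 8.95 and 537 and between 12.3 and 144 CPM. edgeR called none of these markers in fibrous against bone or between the Lin-named and plus-named libraries. In fibrous against bone, fitted log2 fold changes were above 0 for 51.9% of all genes tested. Among the marker lists they were above 0 for 3 of 3 mural markers tested (median 2.58), 8 of 8 marrow stromal (2.10), 7 of 7 osteoblast (0.88) and 7 of 7 chondrocyte markers (0.37). They were below 0 for 7 of 7 neutrophil (median -2.07), 6 of 6 pan-leukocyte (-1.79), 6 of 6 macrophage (-0.98) and 6 of 7 erythroid markers (-1.29), and for 2 of 3 endothelial markers (-0.65). edgeR called 0 genes of any of these lists in that comparison, and their part in the values of the 8 basement membrane genes was not tested.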

How the data were processed

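Gene counts of 13 bulk RNA-seq libraries were used as deposited by the authors: raw counts of 23211 genes by Ensembl ID. Per the submitters' processing notes, edgeR and the builds mm10 and hg38 were used. The sources used here do not give the aligner, counter, annotation or strand setting. Symbols, positions and exon lengths came from GENCODE M21 (mm10), and promoters from RefSeq GRCm38.p6.

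Counts were fitted with edgeR 4.0.16 in R 4.3.3 (filterByExpr with a minimum count of 10, TMM factors, robust quasi-likelihood F-test). The model for fibrous against bone held group and name series, and that for the L002 libraries held group and name word. The filter used group in the former and name word in the latter, where fibrous 1 was a set of its own. p-values were adjusted by Benjamini-Hochberg over all genes tested, with a threshold of 0.05. Standard errors are the log2 fold change over the square root of F. CPM were scaled by TMM. DESeq2 1.42.0 and limma 3.58.1 were alternatives. The code was tested on simulated data.

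The genes and lists were chosen with earlier results of these data known. Named genes were the 9 listed genes with a row, up to 3 with the highest mean CPM of each other basement membrane list, and the 8 most alike in pattern. Lama5 was not analysed here, and some genes of the other lists are not reported here.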

Additional observations from a re-analysis of the deposited data

Results flagged for a closer look

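The 9 genes in the 2 groups gave 18 sets of levels, and in 2 of them 1 library, fibrous 2 both times, stood far from the rest. The rule, Dixon's gap over range, flags about 1 in 20 sets of normally distributed values. These CPM were not transformed and the sets share libraries, so that rate may not hold here. Lamc1 in fibrous 2 was at 45.1 CPM, with the next fibrous library at 17.5 CPM. Col4a2 in fibrous 2 was at 85.6 CPM, with the next at 31.9 CPM. Fibrous 2 was also the library with the most Lepr, at 804 CPM, and without it the median log2 fold change of the 8 fitted genes in fibrous against bone was 1.26.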

How the results depend on the processing

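The fibrous and bone comparison called 0 genes and 0 of the 8 listed genes with edgeR under upper-quartile factors, with no filter, a stricter filter or no series term, in each series alone, without the Lin-named or Lepr-low libraries, with each library left out in turn, and with limma voom (median of the 8 genes 3.17). DESeq2 called 169 genes and 1 of the 8 genes, Lamb1 (5.41, adjusted p = 3.34e-06). All 8 kept a fold change above 0 under each of these. For the Lin-named and plus-named libraries, DESeq2 called 3696 genes and 7 of the 9 genes. Leaving out 1 L002 library gave 90 to 1097 genes and 1 to 4 of the listed genes. With 1 library left out, the genes called numbered 237 without bone 1, 249 without bone 2, 91 without bone 3, 132 without bone 4, 232 without fibrous 2 and 90 without fibrous 3. Over these fits Lamb1 ran from -1.82 to 1.27, above 0 without fibrous 5 alone, and Col4a1 was called (adjusted p = 0.0347) without fibrous 5 too. Between the series DESeq2 called 1982 genes, and without the Lin-named libraries Lama4 turned to -0.61, Lamb2 to -0.21, Lamc1 to -0.22, Col4a1 to -0.12 and Col4a2 to -0.53. For the interaction DESeq2 called 25 genes, and without the Lin-named libraries Lama4 turned to 0.51, Lamc1 to 0.087 and Col4a2 to 0.051. The causes were not tested. The labels give bone and fibrous libraries no shared replicate numbers, so these were not paired. For Lin against plus, an alternative chosen after seeing the data used the 4 libraries that share an identifier: edgeR called 15 genes and 0 listed genes with the identifier as a replicate block, which in these 4 is also the group, and 0 genes without it (2062 at an unadjusted p under 0.05). Deviations of libraries with one identifier correlated at 0.14 over genes, the same value for both pairs by construction. Genes with fewer than 10 counts in a library, such as Lama2 in bone, are at the limit of this depth.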
